A study of Mus musculus with 2 samples.

Results

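Glycolysis splits glucose into pyruvate in the cytosol, and several of its steps are carried by paired enzyme isoforms that differ between tissues. The genes described here were chosen by symbol and number 10 of the 25120 genes with a column in at least 1 of the count tables: the hexokinases Hk1 and Hk2, the aldolases Aldoa and Aldoc, Gapdh, Pgk1, Eno1, Pkm, and the lactate dehydrogenase subunits Ldha and Ldhb. All 10 had a column in both tables. The description follows isoform choice within the hexokinase, aldolase and lactate dehydrogenase pairs over marker-defined cell classes, and then sets the FGF21 library beside the vehicle library.

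The cells came from the basolateral amygdala, a part of the forebrain concerned with emotional learning and reward, of adult C57BL/6 mice, and were sorted by flow cytometry for tdTomato fluorescence and Hoechst viability staining. The FGF21 group received the hormone FGF21 at 1 mg/kg in 1 dose per day over 3 days, and the vehicle group received vehicle on the same schedule. Dissected tissue of 3 mice was pooled per group and gave 1 BD Rhapsody library, so neither group had a replicate. Every interval below covers counting error only. The labels name the study's target as cells expressing KLB, the co-receptor of FGF21, but name neither the allele nor the promoter that drove tdTomato.

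The FGF21 library held 2455 barcodes with 14585503 UMIs (unique molecular identifiers, each marking 1 captured transcript), and the vehicle library 2925 barcodes with 11130580. After filtering, 1938 FGF21 cells with a median of 6840 UMIs and 2336 vehicle cells with a median of 4234 UMIs were used. The libraries shared 12 cell barcodes. Of the sort's intended marks, tdTomato had a UMI in 678 of 1938 FGF21 cells and 523 of 2336 vehicle cells, while Klb had a UMI in 0 FGF21 cells, which allows a share of up to 0.155%, and in 3 vehicle cells. Of 24 neuronal markers, 6 were found in at least 10% of FGF21 cells and 3 in at least 10% of vehicle cells, and no cluster was named neuron-like.

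Classes were named from marker lists, and clustering left the glycolytic genes out. Microglia-like cells, named for the brain's own macrophages, numbered 885 in the FGF21 and 1418 in the vehicle library. Oligodendrocyte precursor-like cells, named for the progenitors that give rise to myelinating glia, numbered 576 and 375, and astrocyte-like cells, the glia that supply neurons with metabolites, 192 and 99. These 3 classes had at least 50 cells per library and were compared between libraries. Another 5 groups with at least 20 cells per library are described by their levels: mural-like cells of small vessels (40 FGF21, 181 vehicle), oligodendrocyte-like cells (82 and 41), border macrophage-like cells (23 and 46), erythroid-like cells (20 and 46) and an unnamed cluster led by Enpp6 and Bmp4, genes of committed oligodendrocyte precursors (38 and 33). In each of the 3 compared classes, 8 of 8 markers were found in at least 10% of cells of both libraries. The same lists named the classes, so this count is not a separate check of the names.

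Levels are given in CPM, the UMIs of a gene per 1000000 UMIs of all cells of a class, and they are not divided by transcript length. Free RNA, which is released from broken cells and captured with every cell, was estimated from markers found in classes that should lack them. It amounted to 33.6% of the library profile in FGF21 cells and 28.6% in vehicle cells, as the median of 15 pairs of a class and a marker list. The pairs ranged from 22.3% to 45.9% in the FGF21 and from 19.9% to 42.8% in the vehicle library. A level that this estimate accounts for is not read as expression by the class.

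In textbook accounts, hexokinase phosphorylates glucose on entry, aldolase splits the resulting sugar bisphosphate, Gapdh oxidises the product, Pgk1 and pyruvate kinase (Pkm) form ATP, enolase (Eno1) stands between them, and lactate dehydrogenase interconverts pyruvate and lactate. Aldoc is the aldolase of brain and Aldoa that of muscle and most other tissues. Ldha subunits predominate in skeletal muscle and Ldhb subunits in heart. Hk1 is the general hexokinase of brain, and Hk2 is the inducible form of insulin-sensitive tissues.

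The upstream windows of the 3 isoform pairs are shown because many glycolytic genes are known targets of hypoxia-inducible factors, whose core motif is ACGTG or GCGTG. All 10 genes matched RefSeq windows of GRCm38.p6, 250 bases before an annotated start, by symbol. The motif was searched on both strands, where it overlaps the E-box CACGTG, and capitals mark matches.
Hk1, chr10:62379909-62380158, minus strand: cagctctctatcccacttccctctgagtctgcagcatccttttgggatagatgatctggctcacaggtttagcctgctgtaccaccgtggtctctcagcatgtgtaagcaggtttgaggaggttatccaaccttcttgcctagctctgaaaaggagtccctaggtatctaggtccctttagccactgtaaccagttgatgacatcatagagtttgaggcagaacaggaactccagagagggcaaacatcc
Hk2, chr6:82774455-82774704, minus strand: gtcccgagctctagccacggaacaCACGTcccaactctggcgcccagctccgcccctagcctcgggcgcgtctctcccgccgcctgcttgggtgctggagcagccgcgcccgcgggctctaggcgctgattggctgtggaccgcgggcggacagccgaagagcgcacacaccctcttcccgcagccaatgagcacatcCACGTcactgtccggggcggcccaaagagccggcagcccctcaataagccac
Aldoa, chr7:126799255-126799504, minus strand: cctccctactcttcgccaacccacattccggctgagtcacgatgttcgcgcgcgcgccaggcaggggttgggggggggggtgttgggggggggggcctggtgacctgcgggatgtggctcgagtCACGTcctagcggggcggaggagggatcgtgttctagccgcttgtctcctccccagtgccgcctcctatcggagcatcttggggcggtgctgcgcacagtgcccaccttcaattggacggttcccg
Aldoc, chr11:78322823-78322967, plus strand: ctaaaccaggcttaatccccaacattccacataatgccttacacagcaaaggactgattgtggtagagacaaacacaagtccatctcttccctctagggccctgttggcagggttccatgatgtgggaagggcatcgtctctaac
Ldha, chr7:46845554-46845803, plus strand: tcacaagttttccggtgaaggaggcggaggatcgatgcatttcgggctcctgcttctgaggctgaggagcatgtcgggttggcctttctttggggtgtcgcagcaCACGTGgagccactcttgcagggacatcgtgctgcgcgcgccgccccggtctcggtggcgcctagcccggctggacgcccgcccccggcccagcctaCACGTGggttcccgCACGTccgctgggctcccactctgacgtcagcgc
Ldhb, chr6:142507958-142508207, minus strand: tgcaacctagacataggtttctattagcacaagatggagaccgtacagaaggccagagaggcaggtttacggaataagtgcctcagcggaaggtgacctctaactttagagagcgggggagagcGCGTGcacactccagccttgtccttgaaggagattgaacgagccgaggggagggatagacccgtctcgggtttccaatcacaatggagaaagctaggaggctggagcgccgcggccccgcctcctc

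Of these stretches, that of Ldha held 5 matches counted over both strands, including the E-box, that of Hk2 held 2, those of Aldoa and Ldhb held 1 each and that of Hk1 held 0. Hk1 has another window, not shown because 186 of its 250 bases are exonic, which held 3 matches. The Aldoc stretch is the 145 bases outside annotated exons of 1 of its 2 windows, and each of these windows held 1 match in its exonic part. Over all 18 windows of the 10 genes, 15 held a match, against 38.6% of 32851 RefSeq windows, and each gene had a match in at least 1 window. Some windows of Aldoa and of Eno1 overlap, so that a match there counts in more than 1 window. A match is a string of letters and not evidence of binding.

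The 10 genes together were most abundant in astrocyte-like cells, at 5767 CPM in the FGF21 and 5055 CPM in the vehicle library. The other 7 groups held between 916 and 2475 CPM in the FGF21 library and between 592 and 2327 CPM in the vehicle library, with erythroid-like cells lowest and mural-like cells highest in both. Aldoc alone made up 47.4% of the astrocyte-like sum in the FGF21 and 54.1% in the vehicle library. In microglia-like cells Gapdh was the most abundant of the 10, with 23.1% and 22.1% of the sum, and in mural-like and oligodendrocyte-like cells it was Aldoa.

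**Figure D1:**
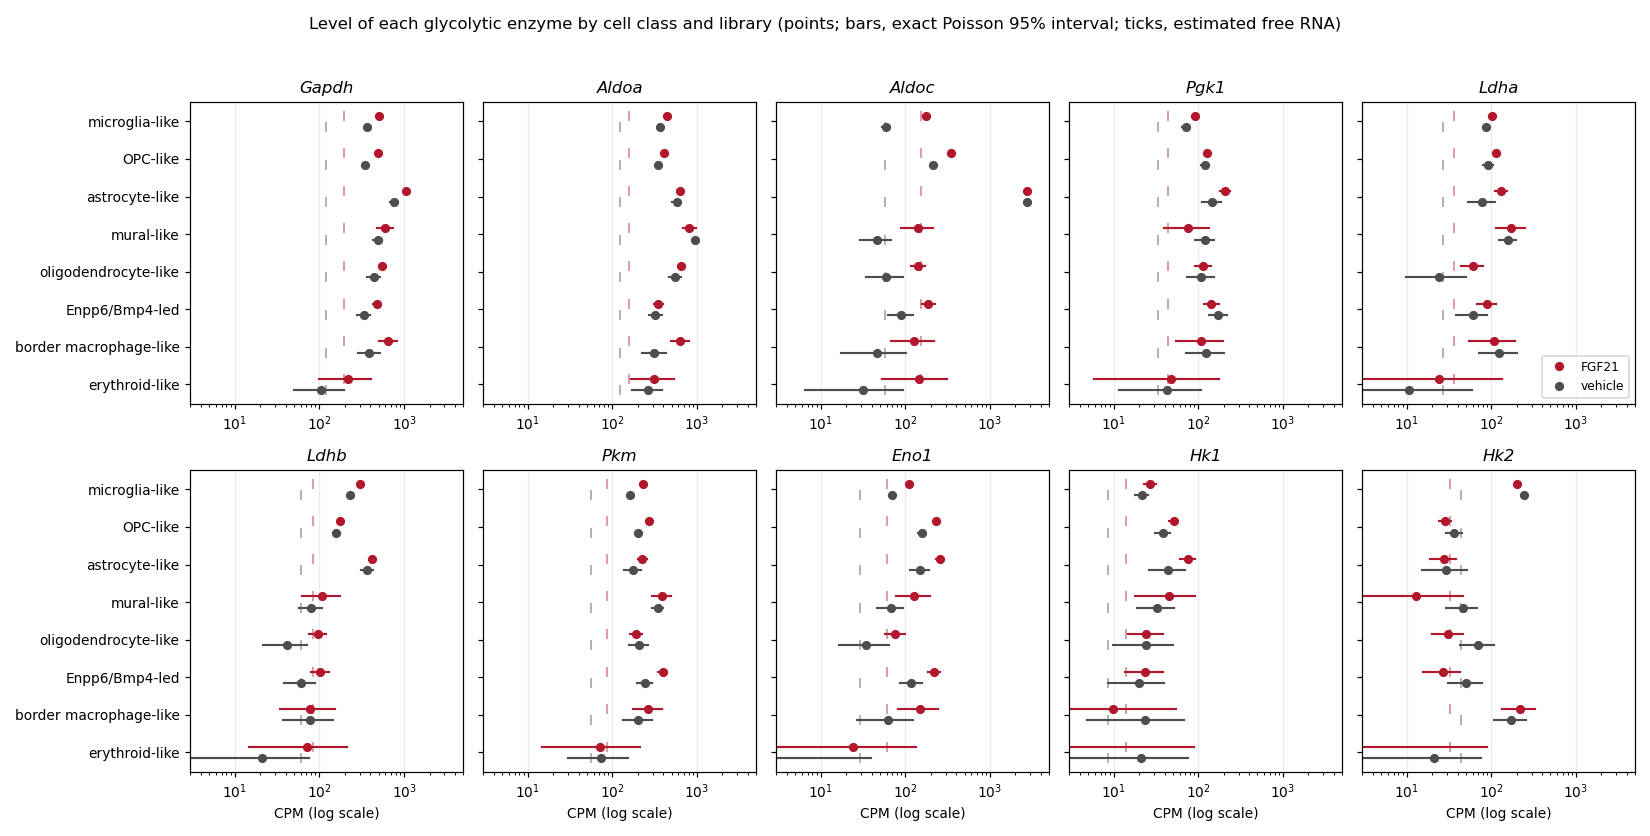
Level of each enzyme in CPM (log axis) by cell class, with the FGF21 library in red and the vehicle library in grey; bars are exact Poisson 95% intervals, dashed ticks mark the level predicted from free RNA, and levels under 3 CPM, all of them 0, lie outside the axes. Aldoc stands at 2731 and 2735 CPM in astrocyte-like cells and on or near its ticks in most other groups, and Hk2 stands above its ticks in microglia-like and border macrophage-like cells.

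Aldolase choice differed between the 3 compared classes. Astrocyte-like cells carried mostly Aldoc, which took 81.1% of their Aldoa and Aldoc UMIs in the FGF21 library (95% interval 79.9 to 82.3) and 82.7% in the vehicle library (80.6 to 84.7). Oligodendrocyte precursor-like cells carried both, with an Aldoc share of 45.9% (44.3 to 47.5) in the FGF21 and 38.1% (35.6 to 40.7) in the vehicle library. Microglia-like cells carried mainly Aldoa, with Aldoc shares of 28.2% (26.7 to 29.7) and 13.9% (12.6 to 15.3). In neither library did the intervals of these 3 classes overlap.

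Aldoc (chromosome 11, 78322968 to 78327781, plus strand, GRCm38) had 2731 CPM in FGF21 astrocyte-like cells (2638 to 2826) and 2735 CPM in vehicle astrocyte-like cells (2577 to 2901). Oligodendrocyte precursor-like cells followed with 347 CPM in the FGF21 library (331 to 363) and 215 CPM in the vehicle library (197 to 234). The order from astrocyte-like to oligodendrocyte precursor-like to all other groups was the same in both libraries, and among the other 6 groups the interval of each overlapped that of its neighbour in the order. Microglia-like cells had 174 and 59.6 CPM, oligodendrocyte-like cells 141 and 58.7 CPM, and mural-like cells 140 and 46.0 CPM. Free RNA was predicted at 154 CPM in the FGF21 and 57.2 CPM in the vehicle library, which is 88.6% and 95.9% of the microglia-like level and over 100% of the mural-like level in both. Over the range of the estimate, the prediction ran from 101.9 to 210 CPM in the FGF21 and from 39.7 to 85.4 CPM in the vehicle library, and the microglia-like levels lie inside both ranges.

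With this free RNA subtracted, the Aldoc share was 84.4% in FGF21 and 85.7% in vehicle astrocyte-like cells, and 43.6% and 41.3% in oligodendrocyte precursor-like cells. In microglia-like cells it came to 6.56% and 0.991%. The subtraction thus left the order of the 3 classes as it was, reduced the microglia-like shares most, and brought the FGF21 and vehicle shares of oligodendrocyte precursor-like cells to within 3 points of each other.

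Aldoa (chromosome 7, 126795234 to 126800751, minus strand) was spread more evenly, with its highest level only 2.59 times its lowest in the FGF21 library and 3.60 times in the vehicle library. Mural-like cells were highest, with 810 CPM (675 to 964) in the FGF21 and 950 CPM (868 to 1037) in the vehicle library, where no other interval reached theirs. Their Aldoc shares had the lowest values of the 8 groups, at 14.8% (9.49 to 21.5) in FGF21 and 4.62% (2.98 to 6.79) in vehicle cells. In both libraries these intervals overlapped those of oligodendrocyte-like, border macrophage-like and erythroid-like cells. Free RNA accounted for 109.5% and 124.4% of the mural-like Aldoc level, so these shares are not read as expression of Aldoc. Astrocyte-like cells had 635 and 573 CPM of Aldoa, microglia-like cells 442 and 370 CPM and oligodendrocyte precursor-like cells 409 and 349 CPM. Astrocyte-like cells therefore held more Aldoa than the other 2 compared classes, by more than counting error, beside their Aldoc.

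**Figure D2:**
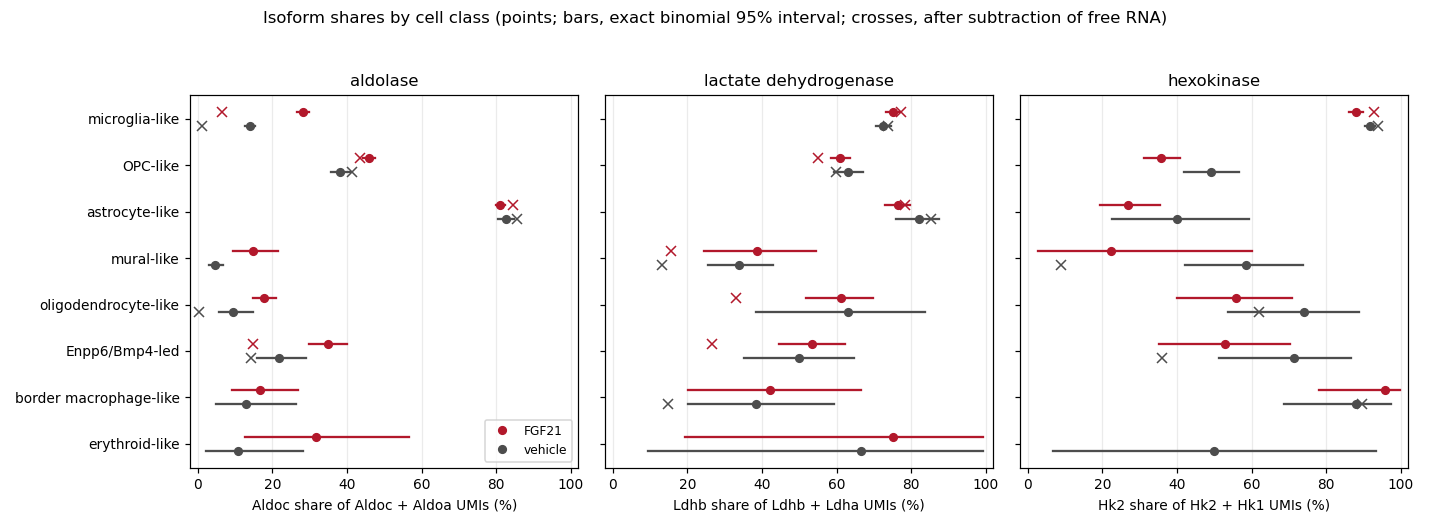
Share of the named isoform among the UMIs of its pair (percent, horizontal) by cell class, with FGF21 in red above vehicle in grey; bars are exact binomial 95% intervals, crosses give the share after subtraction of free RNA and are missing where the subtraction left 1 isoform at or below 0. Aldoc shares are highest in astrocyte-like cells, at 81.1% and 82.7%. The lowest values are those of mural-like cells (FGF21 14.8%, vehicle 4.62%), whose intervals overlap those of other groups. Hk2 shares are highest in microglia-like and border macrophage-like cells.

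Lactate dehydrogenase leaned to Ldhb in all 3 compared classes. Ldhb took 76.4% (73.0 to 79.6) of the pair's UMIs in FGF21 and 82.2% (75.8 to 87.5) in vehicle astrocyte-like cells, and 75.1% (73.2 to 76.8) and 72.6% (70.5 to 74.6) in microglia-like cells. Oligodendrocyte precursor-like cells were lower, at 61.0% (58.5 to 63.5) and 63.2% (59.3 to 67.0). The share of the FGF21 library overlapped that of the vehicle library in each of the 3 classes.

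The pair turned round in mural-like cells, where Ldhb took 38.6% (24.4 to 54.5) in the FGF21 and 33.9% (25.6 to 42.9) in the vehicle library. Border macrophage-like cells had 42.1% and 38.5%, but on 19 and 26 UMIs of the pair, so that their intervals reached from 20.3% to 66.5% and from 20.2% to 59.4%. Microglia-like and border macrophage-like cells, which are both macrophages of the brain, therefore differed in this share by more than counting error in both libraries. Free RNA accounted for 106% and 78.0% of the border macrophage-like Ldhb level, so that their Ldhb is hardly above it.

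Ldhb (chromosome 6, 142490249 to 142507957, minus strand) was highest in astrocyte-like cells, with 421 CPM (386 to 460) in the FGF21 and 364 CPM (308 to 427) in the vehicle library. Microglia-like cells came next with 305 CPM (290 to 320) and 228 CPM (216 to 241), and then oligodendrocyte precursor-like cells with 177 and 158 CPM. Below these 3, free RNA accounted for 75.6% or more of the Ldhb level in every group of either library. Ldha (chromosome 7, 46841475 to 46855627, plus strand) was highest in mural-like cells, at 172 CPM (114 to 251) in the FGF21 and 157 CPM (125 to 195) in the vehicle library. In the 3 compared classes Ldha stood between 101 and 130 CPM in the FGF21 library and between 78.6 and 92.3 CPM in the vehicle library. Each Ldha interval overlapped that of its neighbour in the order over all 8 groups, so that neighbouring classes are not resolved for Ldha.

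Hexokinase choice set the macrophage classes apart. Hk2 took 88.1% (86.2 to 89.8) of the Hk1 and Hk2 UMIs of microglia-like cells in the FGF21 and 91.8% (90.3 to 93.2) in the vehicle library. Border macrophage-like cells had 95.7% (78.1 to 99.9) and 88.0% (68.8 to 97.5) on 23 and 25 UMIs. Hk3, a hexokinase outside the pair, had 53.5 CPM in FGF21 and 48.3 CPM in vehicle microglia-like cells, more than Hk1 had there. The shares therefore describe the pair and not all hexokinase. Hk2 (chromosome 6, 82725025 to 82774454, minus strand) had 201 CPM (189 to 213) in FGF21 and 241 CPM (228 to 254) in vehicle microglia-like cells, and 216 CPM (135 to 327) and 172 CPM (108 to 260) in border macrophage-like cells. The macrophage classes did not differ from each other in Hk2 beyond counting error, and they stood above every other group in both libraries.

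In the other groups Hk2 lay at the level of free RNA. Oligodendrocyte precursor-like cells had 28.5 and 36.7 CPM and astrocyte-like cells 27.4 and 29.5 CPM, where free RNA predicted 32.7 CPM in the FGF21 and 43.6 CPM in the vehicle library. The Hk2 shares of 35.8% and 49.2% in oligodendrocyte precursor-like cells, and of 26.8% and 40.0% in astrocyte-like cells, are therefore not read as expression of Hk2. Oligodendrocyte-like cells of the vehicle library stood highest among these groups, with 69.1 CPM from 20 UMIs, of which free RNA accounted for 63.1%.

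Hk1 (chromosome 10, 62268855 to 62379908, minus strand) was lowest in microglia-like cells among the 3 compared classes, at low counts. Astrocyte-like cells had 74.7 CPM (60.03 to 91.8) in the FGF21 and 44.2 CPM (26.2 to 69.9) in the vehicle library, oligodendrocyte precursor-like cells 51.1 CPM (45.1 to 57.7) and 37.9 CPM (30.6 to 46.4), and microglia-like cells 27.1 CPM (22.9 to 31.8) and 21.4 CPM (17.8 to 25.5). The intervals of these 3 classes did not overlap in the FGF21 library, and in the vehicle library those of the first 2 did. Free RNA accounted for 18.6% and 19.2% of the astrocyte-like level, and for 51.2% and 39.7% of the microglia-like level. Genes on the other strand overlap Hk1 (Hk1os), Hk2 (Gm17034), Aldoa (Fam57b) and Gapdh (Iffo1), and whether counting used the strand is not given in the sources used here.

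Among the enzymes without a partner in the set, Gapdh (chromosome 6, 125161715 to 125166467, minus strand) was highest in astrocyte-like cells, with 1055 CPM (998 to 1115) in the FGF21 and 764 CPM (682 to 854) in the vehicle library, against 507 and 370 CPM in microglia-like and 496 and 344 CPM in oligodendrocyte precursor-like cells. Pgk1 (chromosome X, 106187100 to 106203699, plus strand) was highest in FGF21 astrocyte-like cells at 207 CPM (183 to 235), while in the vehicle library all 8 groups formed 1 chain of overlapping intervals. Microglia-like cells were lower, with 91.7 and 71.3 CPM. Both enzymes thus stood lower in microglia-like than in astrocyte-like cells of either library.

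Pkm (chromosome 9, 59656368 to 59679375, plus strand) had another pattern. It was highest in the Enpp6- and Bmp4-led cluster of the FGF21 library, at 396 CPM (350 to 446) there against 240 CPM (195 to 293) in the vehicle library, and in mural-like cells, at 383 and 343 CPM. Astrocyte-like cells stood in the middle of the order or below it, with 226 and 175 CPM. The deposited counts are per gene, so that the M1 and M2 splice forms of pyruvate kinase are not told apart. Eno1 (chromosome 4, 150236721 to 150248879, plus strand) was highest in astrocyte-like cells of the FGF21 library at 259 CPM (231 to 289), and in the vehicle library at 156 CPM (140 to 172) in oligodendrocyte precursor-like and 148 CPM (113 to 190) in astrocyte-like cells. Microglia-like cells had 111 and 70.4 CPM. Eno1 thus ranked astrocyte-like and oligodendrocyte precursor-like cells above microglia-like cells in both libraries.

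Single cells were then compared after each was thinned to 2000 UMIs, which left out between 4 and 70 shallower cells per library in each of the 3 compared classes and the mural-like class. In FGF21 astrocyte-like cells 34.8% had a UMI of Aldoc only, 63.4% of both aldolases and 1.83% of Aldoa only. In vehicle astrocyte-like cells the shares were 42.9%, 57.1% and 0%, the last for 0 of 77 cells, which allows up to 3.90%. No thinned astrocyte-like cell lacked both. Before thinning, 91.2% of FGF21 and 69.7% of vehicle astrocyte-like cells had both. Astrocyte-like cells with at least 5 UMIs of the pair had a median Aldoc share of 82.1% (174 FGF21 cells) and 81.9% (76 vehicle cells), and the share exceeded 50% in 168 and 74 of them. The high Aldoc share of the class was thus seen in nearly all its cells with enough UMIs. In mural-like cells, whose Aldoc lies at the level of free RNA, Aldoc with or without Aldoa was seen in 25.0% of 36 thinned FGF21 and 8.33% of 156 thinned vehicle cells.

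Oligodendrocyte precursor-like cells had intermediate values cell by cell. Aldoc only was seen in 23.3% of thinned FGF21 and 16.4% of thinned vehicle cells, both aldolases in 23.6% and 18.9%, and Aldoa only in 28.7% and 27.0%. Joint detection was close to the product of the separate detection shares, 24.5% and 16.2%. The median Aldoc share of cells with at least 5 UMIs of the pair was 45.0% (400 FGF21 cells) and 38.8% (132 vehicle cells), with single cells from 0% to 100%. These cells therefore spread around the class value.

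For hexokinase, Hk2 only was seen in 29.1% of thinned FGF21 and 33.4% of thinned vehicle microglia-like cells, and Hk1 only in 4.05% and 2.37%. In oligodendrocyte precursor-like cells, where Hk2 lies at the level of free RNA, Hk2 only was seen in 3.85% and 6.20%. Unthinned, both hexokinases were seen in 8.70% of FGF21 and 4.37% of vehicle microglia-like cells. For lactate dehydrogenase, Ldhb only was seen in 35.4% and 29.2% of thinned microglia-like and 45.1% and 40.3% of thinned astrocyte-like cells, and Ldha only in 7.99% and 10.8%, and 9.15% and 3.90%. Neither subunit was seen in 34.8% to 59.8% of FGF21 and 49.4% to 65.0% of vehicle cells of the 3 classes, so that many thinned cells showed no choice.

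**Figure D3:**
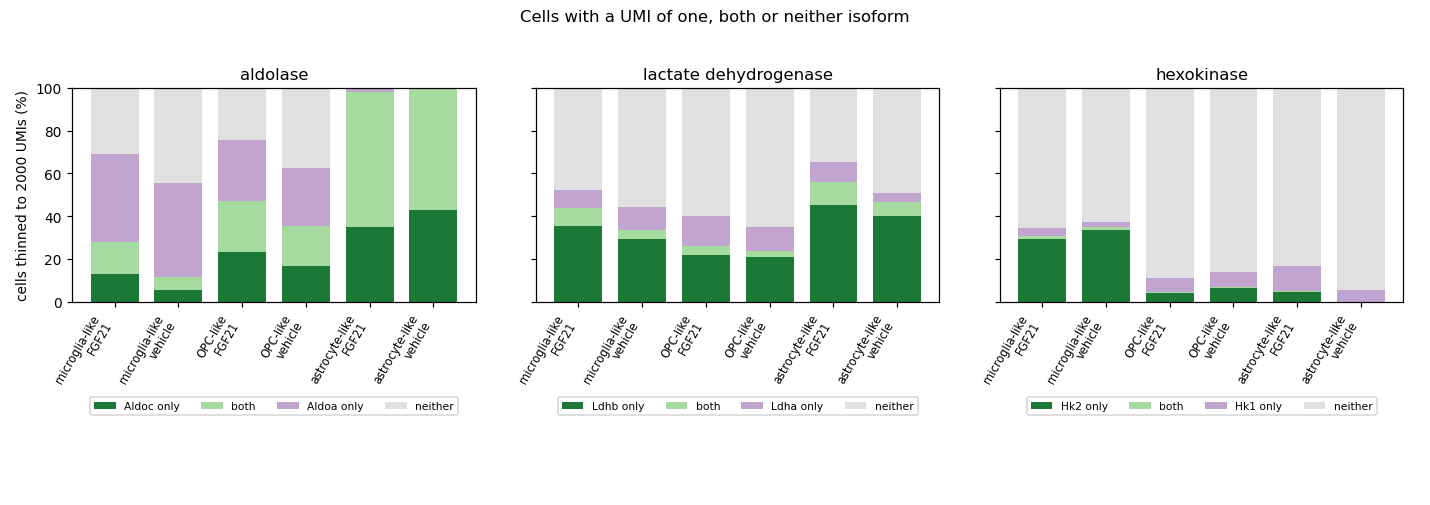
Percent of cells, each thinned to 2000 UMIs, with a UMI of the first isoform only, of both, of the second only, or of neither, for the aldolase, lactate dehydrogenase and hexokinase pairs; each class has its FGF21 bar left of its vehicle bar. Cells with neither isoform are absent among astrocyte-like cells for aldolase and make up most cells for hexokinase.

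Between libraries, most of the 10 genes stood somewhat higher in FGF21 than in vehicle cells of the same class. A gene was called when its CPM differed at least 1.5-fold and it had at least 50 UMIs over both libraries. In microglia-like cells 2 of 10 were called higher, Aldoc and Eno1, where 12.1% of 11372 genes were. In oligodendrocyte precursor-like cells 1 of 10 was called higher, Aldoc, where 5.78% of 11408 genes were. In astrocyte-like cells 3 of 9 with enough UMIs were called higher, Ldha, Eno1 and Hk1, where 11.9% of 6128 genes were. None was called lower in any of the 3 classes, where 5.26%, 4.85% and 8.14% of genes were. The background is thus high in microglia-like and astrocyte-like cells, and the counts of members are small.

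The median log2 ratio of FGF21 to vehicle over the 10 genes was 0.39 in microglia-like cells, 0.35 in oligodendrocyte precursor-like cells and 0.42 in astrocyte-like cells, against 0.03, -0.0091 and -0.0018 over all genes with at least 50 UMIs. The counting interval of the ratio lay above 1 for 8 of 10 genes in microglia-like cells (24.6% of all genes), for 7 of 10 in oligodendrocyte precursor-like cells (13.5%) and for 5 of 9 in astrocyte-like cells (8.94%). It lay below 1 for 1 gene, Hk2, in microglia-like cells (19.2% of all genes) and for none in oligodendrocyte precursor-like cells (13.7%) or astrocyte-like cells (8.18%). The abundance of these genes gives them narrower intervals than most genes have. With 1 library per group, a ratio compares these libraries and no p-value was computed.

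Most microglia-like cells of each library fell into a cluster of their own, 867 of 885 FGF21 cells into 1 and 1399 of 1418 vehicle cells into the other, and oligodendrocyte precursor-like cells were split likewise, with 507 FGF21 and 27 vehicle cells in 1 cluster and 69 and 348 in the other. Astrocyte-like cells formed 1 cluster. The microglia-like clusters were led by Ubash3b, Cebpa and Slc15a3 (mostly FGF21) and by P2ry12, Cysltr1 and Kcnk6 (mostly vehicle), and the precursor-like ones both by Lhfpl3. Within the precursor-like clusters Aldoc had 351 CPM in FGF21 and 306 CPM in vehicle cells in 1 (ratio 1.15, 0.893 to 1.501) and 290 and 207 CPM in the other (1.403, 1.12 to 1.75), both below the call. Gapdh had 1.32-fold and 1.28-fold there, while Ldhb had 0.823-fold (0.610 to 1.14) and 0.918-fold (0.662 to 1.25), where its class ratio was 1.12. In the microglia-like cluster with 867 FGF21 and 19 vehicle cells, Aldoc had 1.78-fold (0.816 to 4.87), Gapdh 1.35-fold (0.900 to 2.14), Eno1 0.976-fold (0.471 to 2.44), Aldoa 0.910-fold (0.636 to 1.35) and Pgk1 0.711-fold (0.358 to 1.66), and each interval includes 1. In the cluster with 18 FGF21 and 1399 vehicle cells, Gapdh had 1.85-fold (1.24 to 2.67), Eno1 2.03-fold (0.741 to 4.46) and Aldoa 0.642-fold (0.308 to 1.18). With 1 library per group, treatment and library cannot be told apart in any class.

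**Figure D4:**
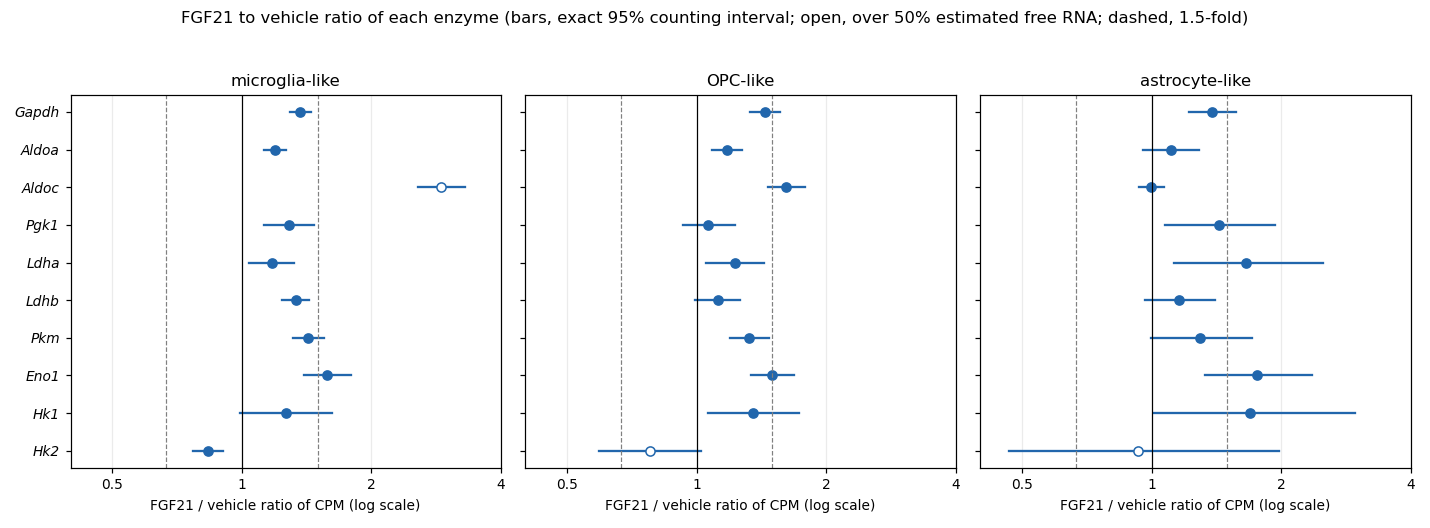
Ratio of FGF21 to vehicle CPM (log axis) for each enzyme in the 3 compared classes, with exact conditional-binomial 95% intervals; open points are genes with over 50% of their UMIs accounted for by free RNA, and dashed lines mark 1.5-fold in either direction. Aldoc lies at 2.91 in microglia-like and 1.00 in astrocyte-like cells, and Hk2 lies below 1 in microglia-like cells with an interval from 0.770 to 0.902.

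Among the aldolases, Aldoc had 174 CPM in FGF21 and 59.6 CPM in vehicle microglia-like cells, a ratio of 2.91 (2.57 to 3.30). Free RNA accounted for 90.5% of these UMIs, and with it subtracted the ratio was 8.10, on few remaining vehicle UMIs. The whole FGF21 library held 458 CPM of Aldoc, against 200 CPM in the vehicle library, beside 192 and 99 astrocyte-like cells. Astrocyte markers as a list had 1140 CPM in FGF21 and 782 CPM in vehicle microglia-like cells, a smaller relative difference than that of Aldoc. Whether these differences are linked was not tested. In oligodendrocyte precursor-like cells the ratio was 1.62 (1.47 to 1.78), and it was 1.23 after subtraction of free RNA, which ends the call. In astrocyte-like cells, where free RNA accounted for 4.73% of the UMIs, the ratio was 0.998 (0.932 to 1.07). Aldoc therefore showed no difference between libraries beyond counting error in the class that holds most of it. With 1 library per group, this interval sets no bound on a change with treatment.

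Aldoa was 1.20-fold (1.13 to 1.27), 1.17-fold (1.08 to 1.27) and 1.11-fold (0.956 to 1.29) as high in FGF21 as in vehicle cells of the microglia-like class, the oligodendrocyte precursor-like class and the astrocyte-like class. In each class that is below the call.

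Hk2 stood apart from the other enzymes over the microglia-like class as a whole. It had 201 CPM in FGF21 and 241 CPM in vehicle cells, a ratio of 0.834 (0.770 to 0.902), with 17.3% of the UMIs accounted for by free RNA. Of all genes with enough UMIs in this class, 20.3% had a lower ratio. Within the microglia-like cluster of 867 FGF21 and 19 vehicle cells, Hk2 had 1.03-fold (0.587 to 1.997). In that of 18 FGF21 and 1399 vehicle cells it had 0.785-fold (0.338 to 1.55), and both intervals include 1. Over the whole class, Hk1 had 27.1 and 21.4 CPM, a ratio of 1.27 whose interval from 0.991 to 1.62 includes 1. In astrocyte-like cells Hk1 had 74.7 CPM in FGF21 and 44.2 CPM in vehicle cells, from 90 and 18 UMIs, and the ratio was 1.69 (1.01 to 2.98). With cells thinned to 2000 UMIs it was 2.58, but only 20 of 164 FGF21 and 4 of 77 vehicle cells then had a Hk1 UMI. The Hk2 share of microglia-like cells was lower in the FGF21 library, with intervals that did not overlap, and after subtraction of free RNA the shares were 92.7% and 93.9%.

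Of the lactate dehydrogenases, Ldhb was 1.34-fold (1.24 to 1.44) as high in FGF21 as in vehicle microglia-like cells, and Ldha 1.17-fold (1.04 to 1.33). In astrocyte-like cells Ldha had 130 CPM in FGF21 and 78.6 CPM in vehicle cells, from 157 and 32 UMIs, a ratio of 1.66 (1.13 to 2.50), and Ldhb had a ratio of 1.16 (0.963 to 1.401). The intervals of the subunits' ratios overlapped within each class.

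Gapdh was higher in FGF21 cells of all 3 classes, at 1.37-fold (1.29 to 1.45) in microglia-like cells, 1.44-fold (1.33 to 1.56) in oligodendrocyte precursor-like cells and 1.38-fold (1.22 to 1.57) in astrocyte-like cells. With free RNA subtracted, the Gapdh ratios were 1.25, 1.35 and 1.34, the first of them below its counting interval. Pkm followed with 1.43-fold (1.31 to 1.56), 1.33-fold (1.20 to 1.47) and 1.30-fold (0.996 to 1.71). Pgk1 had 1.29-fold (1.13 to 1.47), 1.07-fold (0.927 to 1.23) and 1.43-fold (1.07 to 1.93). The intervals include 1 for Pkm in astrocyte-like and Pgk1 in oligodendrocyte precursor-like cells, and that Pgk1 ratio was 0.970 with free RNA subtracted. The other ratios of these 3 genes of the lower pathway were above 1 under every processing alternative run, although within the microglia-like clusters Pgk1 was at 0.711-fold in 1 and had 0 UMIs in the 18 FGF21 cells of the other.

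Eno1 was 1.58-fold (1.39 to 1.79) as high in FGF21 as in vehicle microglia-like cells, 1.498-fold (1.34 to 1.69) in oligodendrocyte precursor-like cells, just under the call, and 1.76-fold (1.33 to 2.35) in astrocyte-like cells. Free RNA accounted for 54.1% of its UMIs in FGF21 and 41.7% in vehicle microglia-like cells. With free RNA subtracted, the ratios were 1.245, 1.37 and 1.68, and the microglia-like call ended. The Eno1 transcript shares 72.2% of its stretches of 50 bases with other genes, most with Eno1b on chromosome 18, a near-identical copy. Eno1b held 28.6% of the summed UMIs of both in FGF21 and 40.2% in vehicle microglia-like cells, 31.0% and 43.2% in oligodendrocyte precursor-like cells, and 35.3% and 45.5% in astrocyte-like cells. With Eno1b added, the ratios were 1.32 (1.20 to 1.47), 1.23 (1.13 to 1.35) and 1.48 (1.20 to 1.84), and the calls ended. Reads of the copies cannot be told apart with certainty, so that the Eno1 values are uncertain.

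Gapdh shares 82.5% of such stretches with 218 other genes, mostly processed copies, of which 2 past the sharing limit of 10% had a column. With these added, its ratios were 1.31, 1.402 and 1.34. Pgk1 shares 68.0%, mostly with Pgk1-rs7, but 7.32% over the last 500 bases of the transcript. Pkm shares 34.4%, but 0% over the last 500 bases, and Gm49759 overlaps it on the same strand. Aldoc, Hk1 and Hk2 share 0% with any gene, and no isoform shares any stretch with its partner, so that the isoform shares are not subject to confusion within a pair. Aldoa shares 13.5%, Ldha 16.7% and Ldhb 27.0% with genes outside the pair, or 3.33%, 0% and 24.4% over the last 500 bases. Whether reads lost to those genes shifted the aldolase and lactate dehydrogenase shares was not tested. Another gene with the symbol Aldoa is annotated in GENCODE vM21. Its position is not given here, and stretches or overlap shared with it were not counted. Whether the Aldoa column includes that gene is not given in the sources used here.

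Beyond the 10, 19 other glycolytic enzymes were listed, of which 11 had at least 20 UMIs in microglia-like cells, 11 in oligodendrocyte precursor-like cells and 9 in astrocyte-like cells. At least 1.5-fold higher in the FGF21 library were 2, 1 and 1 of them, against 14.2%, 7.69% and 16.3% of all genes with as many UMIs. As much lower were 0 of them in each class, against 7.45%, 7.29% and 11.5%. The median log2 ratios of the listed enzymes were 0.24, -0.01 and -0.12, below those of the 10. Gpi1, which makes fructose phosphate, had ratios of 1.21, 0.899 and 1.20 in the 3 classes. Pgam1, the phosphoglycerate mutase, had 1.12, 0.982 and 1.15. Pfkm, a phosphofructokinase, had 1.37, 0.923 and 0.767, with intervals above 1 in microglia-like and below 1 in astrocyte-like cells. Free RNA accounted for 67.2% of its UMIs in microglia-like and 9.58% in astrocyte-like cells. Ratios well above 1 were thus not seen for every enzyme of the pathway.

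Of 12 transport genes, 10, 10 and 6 had at least 20 UMIs in the 3 classes, with median log2 ratios of -0.12, -0.06 and -0.22. Among them 1 was at least 1.5-fold higher in each class, where 14.2%, 7.69% and 16.3% of all genes with as many UMIs were. As much lower were 1, 2 and 0 of them, where 7.45%, 7.29% and 11.5% of all genes were. Slc2a5, the fructose carrier known from microglia, had 530 CPM in FGF21 and 594 CPM in vehicle microglia-like cells (ratio 0.893, 0.850 to 0.938). Bsg, the chaperone of lactate carriers, had 364 and 472 CPM there (0.770, 0.727 to 0.816), and Slc2a1, the general glucose carrier, had 33.4 and 35.1 CPM. In astrocyte-like cells Slc2a1 had 138 CPM in FGF21 and 86.0 CPM in vehicle cells (1.60, 1.11 to 2.38). Slc2a5 and Bsg thus had ratios below 1 in microglia-like cells, where Gapdh had one above it.

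Among 21 genes that control glycolysis or pyruvate entry, 17, 18 and 16 had at least 20 UMIs, and 4, 4 and 3 of them were at least 1.5-fold higher (14.2%, 7.69% and 16.3% of all genes with as many UMIs) and 0, 1 and 0 lower (7.45%, 7.29% and 11.5%). The median log2 ratios were 0.19, 0.21 and 0.04. Pdk2, a kinase that inhibits pyruvate dehydrogenase, had 73.3 CPM in FGF21 and 31.0 CPM in vehicle microglia-like cells (2.36, 1.98 to 2.83) and 116 and 74.6 CPM in oligodendrocyte precursor-like cells (1.56, 1.32 to 1.85). In astrocyte-like cells, which have the highest Pdk2 level of the 3, it had 251 and 253 CPM (0.990, 0.789 to 1.25). Free RNA accounted for 53.4% of its UMIs in microglia-like cells, 30.6% in oligodendrocyte precursor-like cells and 13.1% in astrocyte-like cells. Pdk2 thus showed the same order of ratios over the 3 classes as Aldoc. The pyruvate carrier subunits Mpc1 and Mpc2 had ratios between 0.865 and 1.14 in all 3 classes.

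Of 19 glycogen and pentose phosphate genes, 18, 18 and 15 had at least 20 UMIs, with median log2 ratios of 0.12, 0.14 and 0.06. At least 1.5-fold higher were 2 of them in each class, where 14.2%, 7.69% and 16.3% of all genes were, and 0, 1 and 2 were lower, where 7.45%, 7.29% and 11.5% were. Pgd and Tkt of the pentose phosphate pathway had ratios between 0.851 and 1.10, and Taldo1 had 1.20, 1.22 and 1.35. Another list held 18 genes of the hypoxia response outside glycolysis. Some of them, such as Hif1a, Arnt and Vhl, are factors or regulators of that response. At least 20 UMIs were found for 17, 17 and 15 of the list, with median log2 ratios of 0.16, 0.04 and 0.13. Of these, 4, 1 and 4 were at least 1.5-fold higher and 1, 0 and 0 lower, against the same shares of all genes (14.2%, 7.69% and 16.3% higher; 7.45%, 7.29% and 11.5% lower). P4ha1, a collagen prolyl hydroxylase, had 199 CPM in FGF21 and 374 CPM in vehicle microglia-like cells (0.531, 0.494 to 0.572), while Ddit4, an inhibitor of mTOR signalling, had 286 and 185 CPM (1.55, 1.43 to 1.67). Vegfa, the vessel growth factor, was highest in astrocyte-like cells at 762 and 728 CPM (1.05, 0.918 to 1.20). The named hypoxia-inducible genes thus had ratios on both sides of 1.

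The genes whose levels were most like those of an isoform were sought over 16 points, the 8 groups in each library, among 11124 genes. The points share the 2 libraries and their free RNA, and Pearson r of log2(CPM + 1) is given as a description. Aldoc was nearest to Clu (r = 0.992), which encodes the chaperone clusterin, Mt3 (0.987), a brain metallothionein, and Ntsr2 (0.975), a neurotensin receptor of astrocytes. Hk2 was nearest to Rasal3 (0.976), Cd300c2 (0.975) and Ang (0.968), and Hk1 to Pdha1 (0.965), a pyruvate dehydrogenase subunit, Uqcrc1 (0.957), a subunit of respiratory complex III, and Clpb (0.956), a mitochondrial disaggregase. Ldhb had less close neighbours, Fbrsl1 (0.902), Mras (0.882) and Leng8 (0.882). Within each pair the isoforms were not each other's neighbours, with r = 0.25 for Aldoc and Aldoa, 0.63 for Ldhb and Ldha and 0.47 for Hk2 and Hk1. Some points rest on very few UMIs. Both hexokinases had 0 UMIs in FGF21 erythroid-like cells, and Hk1 had 1 in FGF21 border macrophage-like cells. How far such points set the r values of Hk1 and Hk2 was not tested.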

How the data were processed

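Single cells of 2 pooled tissue samples were measured with the BD Rhapsody whole transcriptome assay, and per the file headers the deposited tables, made with version 1.9.1 of the BD WTA Rhapsody Analysis Pipeline, hold UMI counts per cell and gene after RSEC error correction. The genome build was GRCm38, per the submitters' processing notes. No annotation or strand setting is given in the sources used here. Tissue was dissociated with pronase in the presence of actinomycin D, which blocks transcription, per the labels' protocols.

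Cells needed 500 UMIs or more, 300 genes or more and no more than 25% of UMIs from mitochondrial genes (1951 FGF21, 2354 vehicle), and Scrublet in scanpy 1.11.5 removed 13 and 18 doublets (0.720% of cells). The 4274 cells were clustered together without integration, with the Leiden method at resolution 1 on 15 neighbours in 30 principal components of 2000 variable genes, into 15 clusters. The 10 genes and the glycolytic, transport and copy lists were left out of the variable genes. A cluster was named from 19 marker lists where its best list led the next by 0.5 in mean z-score with at least 3 markers in 10% of its cells. A cluster led by proliferation markers (mean z-score 3.68) and pan-neuronal markers (2.81; 35 FGF21, 14 vehicle cells) passed this rule but was left unnamed, a choice made after its leading genes were seen, and endothelial-like, choroid plexus-like, fibroblast-like and T or NK cell-like cells had fewer than 20 cells in a library and are not described.

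UMIs were summed per class and library. Levels have exact Poisson intervals, shares exact Clopper-Pearson intervals and ratios exact conditional-binomial intervals, at 95%, computed with scipy 1.17.1. UMIs limit these intervals, which cover counting error only. A missing gene column was read as 0 UMIs. Log2 ratios used a pseudocount of 0.5 UMIs. The ratio step was run on simulated Poisson counts without variation between libraries or mice. That run checks the computation and not the comparison of treatments. Free RNA was predicted as the library's profile times the median share described with the levels. For the upper limit of a share of 0 cells, 3 cells were divided by the total. Positions and transcripts come from GENCODE vM21 on GRCm38, and upstream windows from RefSeq on GRCm38.p6. The alternatives tried were the mitochondrial, UMI and doublet filters, clustering, scaling, thinning, background subtraction, leaving out the largest cell, the UMI minimum and, added after the data were seen, summing a gene with its copies.

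All 10 members are named, with the 3 most abundant genes of every other list except that of copies, and the 3 genes most like Aldoc, Ldhb, Hk1 and Hk2. Hk3 is named as well, because its level bears on how the hexokinase shares are read. The members and lists were chosen with earlier results of these data known. No p-value was computed, because each group had 1 library and cells are not replicates.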

Additional observations from a re-analysis of the deposited data

Results flagged for a closer look

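Aldoc differed between classes in its ratio of FGF21 to vehicle CPM. The ratio was 2.91 in microglia-like and 1.62 in oligodendrocyte precursor-like cells, against 0.998 in astrocyte-like cells, and the intervals did not overlap (2.57 to 3.30, 1.47 to 1.78 and 0.932 to 1.07). The difference between classes was not tested. Free RNA accounted for 90.5%, 40.2% and 4.73% of the Aldoc UMIs of these classes.

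Barcodes that were left out by the filters or as doublets, which entered no comparison, held Aldoc at 548 CPM in the FGF21 and 565 CPM in the vehicle library, against 458 and 200 CPM in the used cells. They also held Hk1 at 45.2 CPM in the vehicle library, against 29.7 CPM in its used cells. The barcodes left out by the filter had a median of 42.2% mitochondrially encoded UMIs in the FGF21 and 42.6% in the vehicle library.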

How the results depend on the processing

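No paired analysis was possible because each treatment had 1 library, and for the same reason no replicate could be left out. No ratio past 1.5-fold changed direction under any alternative run. Among ratios nearer to 1 in oligodendrocyte precursor-like cells, Hk1 (1.35, 1.06 to 1.73) was 0.951 with thinning, and Pgk1 (1.07) and Ldhb (1.12) were 0.970 and 0.963 with subtraction. In astrocyte-like cells, Aldoc (0.998) was above 1 in 5 of 10 alternatives and Hk2 (0.928) in 3 of 8. Of 139 isoform shares over the alternatives, 127 moved by less than their counting interval, as did 293 of 303 ratios, and 65 of 72 counts stayed within 1.5 times the count reported. With free RNA subtracted, the Aldoc share was 6.56% in FGF21 and 0.991% in vehicle microglia-like cells, 43.6% and 41.3% in oligodendrocyte precursor-like cells, and 84.4% and 85.7% in astrocyte-like cells. The Ldhb share was then 77.3% in FGF21 microglia-like and 54.9% in FGF21 oligodendrocyte precursor-like cells, and the Hk2 share 92.7% and 93.9% in microglia-like cells. With cells thinned to 2000 UMIs, the Aldoc share of vehicle and the Ldhb share of FGF21 oligodendrocyte precursor-like cells were 41.1% and 58.4%. The count of members at least 1.5-fold higher in microglia-like cells was 1 with thinning, with subtraction and with copies added. In oligodendrocyte precursor-like cells it was 0 with thinning or subtraction and 2 with the largest cell left out or median-ratio scaling. The Aldoc ratio of microglia-like cells ranged from 2.64 to 8.10 over 10 alternatives, the highest with subtraction, which leaves few vehicle UMIs. Depth limits the hexokinase ratios of astrocyte-like cells, with 18 Hk1 and 12 Hk2 UMIs in vehicle astrocyte-like cells.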
